A study of Mus musculus with 1646 samples.

Results

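In single cells of the mouse colon, 9 genes of the mural cell surface and of pericytes were described, namely *Mcam*, *Cspg4*, *Anpep*, *Art3*, *Plac8*, *Gpx3*, *Pcp4l1*, *Vtn* and *Higd1b*. They were chosen by name, with their pattern over the clusters of this dataset known, and their rows were found through the Ensembl identifiers of the GENCODE vM21 annotation. All 9 were found among the 46517 genes of the count table. The cells fell into 8 clusters drawn by the authors, of which clusters 3 (vascular smooth muscle cells, SMC), 4 (pericytes) and 8 (interstitial SMC; 56 cells) are mural cells and clusters 1, 2, 5, 6 and 7 are fibroblasts (1307 cells). The question was how well each gene parts the 3 mural clusters from each other and from fibroblasts. Because the clusters were drawn from the same counts, every level below is a description and no test between clusters was made.

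The cells came from untreated adult male mice, 10 to 20 weeks old, of 4 fluorescent reporter lines, and all were sorted as CD31-negative and reporter-positive events. PdgfrbGFP mice carry a bacterial artificial chromosome with eGFP under *Pdgfrb* sequences (761 cells, 4 plates), PdgfraGFP mice a nuclear H2BGFP placed in the *Pdgfra* gene (2 plates), Cspg4dsRED mice DsRed under *Cspg4* sequences (91 cells, 1 plate) and Acta2GFP mice GFP under *Acta2* sequences (567 cells, 2 plates, with elastase in the digestion). The Cspg4dsRED sort selects cells on a promoter of one of the 9 genes, so the *Cspg4* level of that line is not independent of the sort. Cells without *Pdgfra* and *Pdgfrb* and visibly contaminated cells had been removed by the authors. The labels name no mouse, so a line counts here as 1 sample, and plates show only the spread within a line.

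Pericytes and SMC are the mural cells of blood vessels, with SMC wrapped around arteries and veins and pericytes lying on capillaries within the endothelial basement membrane. Interstitial SMC lie in the tissue outside the vessel wall. Because pericytes have no contractile apparatus as full as that of SMC, they are usually recognised by panels of surface molecules, of which the proteoglycan NG2 (*Cspg4*), the adhesion molecule CD146 (*Mcam*) and the aminopeptidase CD13 (*Anpep*) are the classical ones, together with transcripts first noted in brain pericytes such as *Vtn*, *Higd1b* and *Art3*. Several of these molecules are also made by fibroblasts or endothelial cells in some organs.

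The 3 mural clusters carried the markers of their names. Pericytes had 3262 ± 193.2 counts of *Rgs5* per 500000 gene counts of a cell (SD, n = 2 lines), 489.3 ± 7.32 of *Kcnj8* and 463.7 ± 114.3 of *Abcc9*, and vascular SMC 32.2 ± 10.8 of *Kcnj8* and 14.8 ± 10.4 of *Abcc9* (n = 3). The 4 pericyte markers *Pdgfrb*, *Rgs5*, *Kcnj8* and *Abcc9* summed to 5141 to 5559 over the pericyte lines and to 325.7 in interstitial SMC. Over the vascular SMC lines they summed to 1072 to 1703, most of it from *Pdgfrb* and *Rgs5*. The contractile gene *Cnn1* stood at 309.8 ± 108.1 in vascular SMC, at 4.36 ± 3.88 in pericytes and at 984.8 in interstitial SMC. The latter had 1339 of *Hhip*, against at most 65.8 in any other cluster, and 470.4 of *Rgs10*, against 4.30 and 6.26 in vascular SMC and pericytes but 312.9 in cluster 2 fibroblasts. The 4 contractile markers *Acta2*, *Myh11*, *Tagln* and *Cnn1* summed to 5087 to 8244 over the vascular SMC lines and to 9372 in interstitial SMC, both above the 1412 to 2143 of the pericyte lines. The defining endothelial gene *Cdh5* was at 0.687 or below in each mural cluster. *Pecam1*, which encodes the CD31 that the sort selected against, was at 5.80 to 12.9 in each of the 8 clusters, fibroblasts included. The summed level of the 12 endothelial markers was nevertheless 832.9 to 982.5 over the lines in pericytes, 398.4 to 467.2 in vascular SMC and 250.4 in interstitial SMC, and most of it came from *Esam*, *Eng* and *Plvap* (495.7, 274.6 and 83.4 in pericytes). *Esam* also stands among the 20 other pericyte and mural genes below, so this sum is not a measure of endothelial RNA alone. One of the 12 was below 1 in pericytes, 3 in vascular SMC and 8 in interstitial SMC. The part of endothelial RNA in the levels of the 9 genes was not tested. The 6 immune markers summed to at most 25.7 in pericytes, with *Ptprc* and *Cd68* below 1. The 4 fibroblast markers *Pdgfra*, *Col1a1*, *Lum* and *Dcn* summed to 733.5 to 1690 over the lines in pericytes, 112.1 to 655.4 in vascular SMC and 1051 in interstitial SMC, against 2733 to 7777 in fibroblast clusters, and none of the 4 was below 1 in a mural cluster. A cell held 47598 to 1494292 gene counts, and its median was 359677 in vascular SMC, 209805 in pericytes and 118252 in interstitial SMC. For this reason shares of cells are given after thinning each cell to 50000 counts, which kept 140 vascular SMC, 140 pericytes and 54 interstitial SMC. Shares above 0 carry Clopper-Pearson intervals at 95%, and where no cell held a count the limit given is 3 cells of the total. Both cover counting error only. They treat each cell as independent and leave out the spread between lines, plates and mice. Reads without molecular identifiers are also not independent molecules.

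Levels are means over cells of counts per 500000, given per line where a line had at least 10 cells of the cluster. In this design the pericytes came from Cspg4dsRED and PdgfrbGFP, the vascular SMC from these and Acta2GFP, and the interstitial SMC from Acta2GFP. Of the 9 genes, 5 were highest in pericytes (*Cspg4*, *Art3*, *Plac8*, *Vtn* and *Higd1b*), 2 in vascular SMC (*Mcam* and *Pcp4l1*) and 2 in a fibroblast cluster (*Anpep* and *Gpx3*). Scaled to exon length, the levels in pericytes were 523.6 per kilobase for *Gpx3*, 247.5 for *Plac8*, 231.7 for *Vtn*, 122.03 for *Pcp4l1*, 118.7 for *Mcam*, 84.1 for *Art3*, 64.9 for *Higd1b*, 43.9 for *Cspg4* and 5.21 for *Anpep*. The classical surface markers *Cspg4* and *Anpep* were thus the lowest of the 9 genes on this scale in the pericytes. The scale divides by all annotated exon bases of a gene, such as 11931 for *Cspg4* and 847 for *Higd1b*. It does not use the length of a single transcript, so the order depends on the annotation. In vascular SMC the same scale gave 451.7 for *Pcp4l1*, 161.01 for *Mcam* and 20.9 for *Cspg4*.

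**Figure D1:**
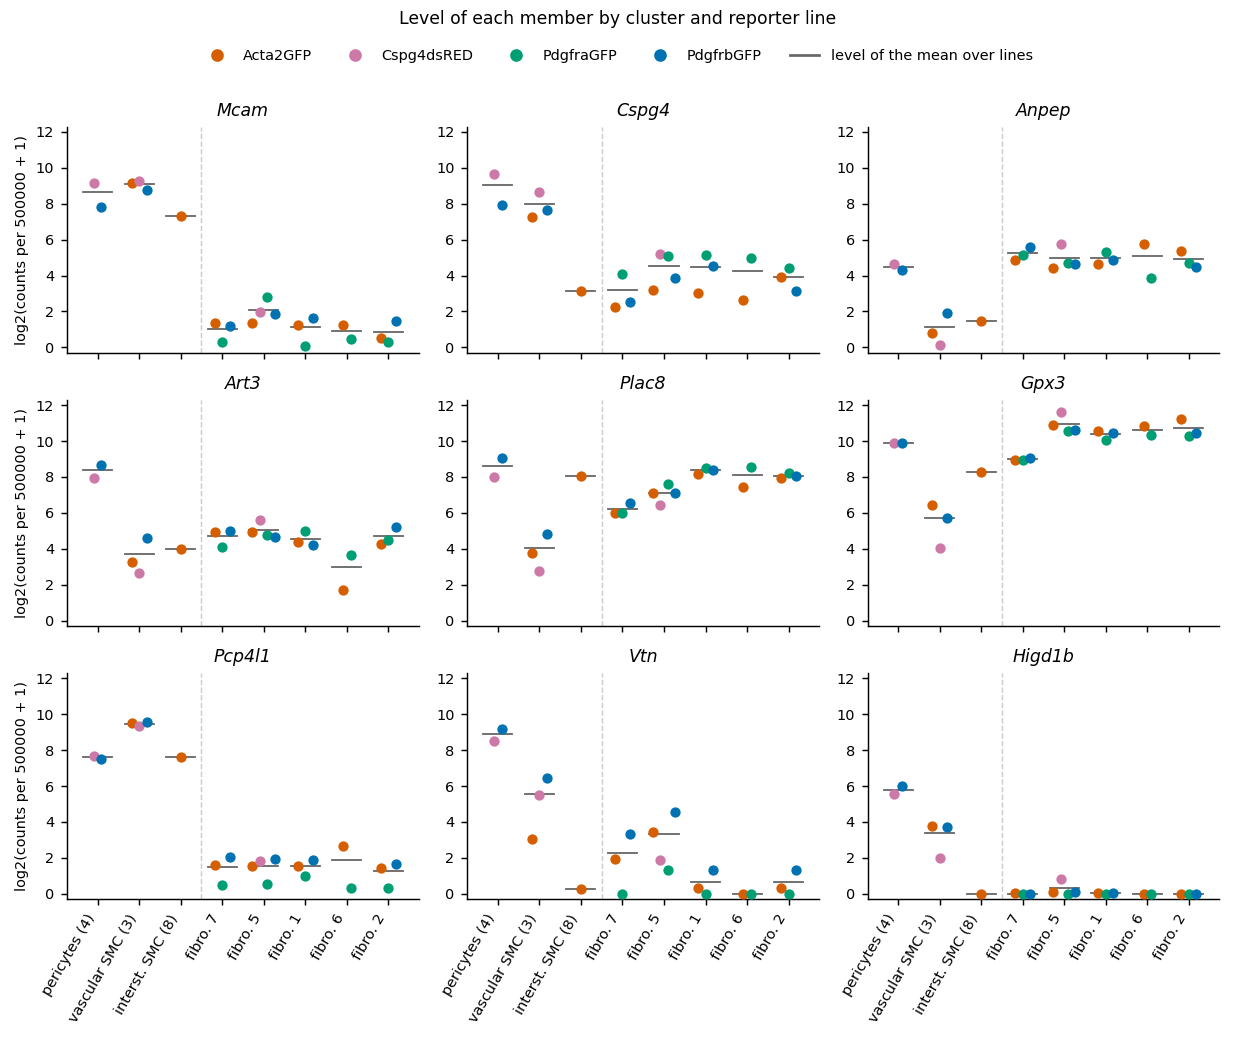
Level of the 9 genes in the 8 clusters, as log2(counts per 500000 + 1), with 1 point for each reporter line that has at least 10 cells of the cluster and a bar at the mean over lines. The mural clusters stand left of the dashed line. *Mcam* and *Pcp4l1* are high in all 3 mural clusters and near 0 in fibroblasts, *Vtn* and *Higd1b* peak in pericytes and are near 0 in interstitial SMC, and *Anpep* and, outside cluster 7, *Gpx3* are higher in fibroblasts.

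*Mcam* (ENSMUSG00000032135, GRCm38 chr9:44134469-44142727, plus strand) encodes CD146, an adhesion glycoprotein of the immunoglobulin superfamily. In vascular SMC its level was 434.99 in PdgfrbGFP, 577.4 in Acta2GFP and 605.8 in Cspg4dsRED (539.4 ± 91.5, SD, n = 3). In pericytes it was 573.3 in Cspg4dsRED and 221.98 in PdgfrbGFP, and in interstitial SMC it was 155.6. The pericyte lines overlapped the vascular SMC lines, while each line of either cluster lay above the single interstitial SMC value. Fibroblast clusters ranged from 0.817 to 3.29, below the lowest mural line. After thinning, 95% of vascular SMC (90 to 98), 72.9% of pericytes (64.7 to 80) and 55.6% of interstitial SMC (41.4 to 69.1) held a count of *Mcam*, against 7.63% to 13.9% over the fibroblast clusters.

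*Cspg4* (ENSMUSG00000032911, chr9:56865033-56899870, plus strand) encodes NG2, a proteoglycan that spans the membrane. Its level in pericytes was 800.4 in Cspg4dsRED, the line sorted on it, and 247.04 in PdgfrbGFP. In vascular SMC it was 398.3 in Cspg4dsRED, 152.6 in Acta2GFP and 196.7 in PdgfrbGFP, so that the clusters overlapped between lines and the line sorted on *Cspg4* was highest in both. Interstitial SMC were at 7.92, beside 8.14 to 22.5 in the fibroblast clusters, and within Acta2GFP, the line they came from, the fibroblast clusters had 3.68 to 13.9 and thus overlapped them. A count was held by 9.26% of thinned interstitial SMC (3.08 to 20.3) and by 74.3% of pericytes (66.2 to 81.3). The pericyte share pools the lines and so depends on their mix. After thinning, all Cspg4dsRED pericytes, from the line sorted on *Cspg4*, held a count, and the PdgfrbGFP share was below the pooled value. In the deposited counts all Cspg4dsRED pericytes and 85.6% of PdgfrbGFP pericytes held one. On the plate with 12 interstitial SMC the gene was listed at 0.

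*Anpep* (ENSMUSG00000039062, chr7:79821803-79861059, minus strand) encodes CD13, a zinc-dependent aminopeptidase of the outer membrane. Pericytes had 24.2 in Cspg4dsRED and 18.9 in PdgfrbGFP, vascular SMC had 0.771 in Acta2GFP, 0.0971 in Cspg4dsRED and 2.83 in PdgfrbGFP, and interstitial SMC had 1.80. The pericyte lines were above all SMC lines and within the range of the fibroblast lines, whose cluster means were 28.8 to 36.7. The median pericyte held no *Anpep* count in either line, and 6.34% of pericytes (2.94 to 11.7) reached 100 counts per 500000. In the fibroblast clusters 40% to 58.6% of thinned cells held a count, against 23.6% of pericytes (16.8 to 31.5) and 5.00% of vascular SMC (2.03 to 10.0).

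*Art3* (ENSMUSG00000034842, chr5:92331827-92414628, plus strand) belongs to the ADP-ribosyltransferase family, whose members are tied to the membrane by a lipid anchor. Its level in pericytes was 249.2 in Cspg4dsRED and higher in PdgfrbGFP, with 330.6 ± 115.1 over the 2 lines. It was 8.46, 5.38 and 22.8 in the vascular SMC of Acta2GFP, Cspg4dsRED and PdgfrbGFP, and 15 in interstitial SMC. Both pericyte lines lay above every other line, and the fibroblasts at 6.95 to 31.9 overlapped the SMC. Thinned shares were 86.4% of pericytes (79.6 to 91.6), 20.7% of vascular SMC (14.3 to 28.4) and 18.5% of interstitial SMC (9.25 to 31.4). Of its exon bases 3.38% are shared with *Cxcl10*, a chemokine gene on the opposite strand, and no source used here says whether reads were counted by strand. Over all cells of a cluster *Cxcl10* was at 192.6 in pericytes, where *Art3* was at 369.7, and at 178.4 in cluster 2 fibroblasts, where *Art3* was at 23.6. The part of *Cxcl10* reads in the *Art3* level was not tested.

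*Vtn* (ENSMUSG00000017344, chr11:78499091-78502324, plus strand) encodes vitronectin, a secreted glycoprotein that integrins bind. Pericytes had 357.8 in Cspg4dsRED and 582.7 in PdgfrbGFP. Vascular SMC had 7.25 in Acta2GFP, 44.5 in Cspg4dsRED and 85.7 in PdgfrbGFP, and interstitial SMC 0.206. The pericyte lines lay above all SMC lines. The Acta2GFP value of vascular SMC came from 1 of 29 cells, at 209.5, while the others had at most 0.689, so the SMC clusters of that line were not parted by *Vtn*. No thinned interstitial SMC of 54 held a *Vtn* count, which allows a share of up to 5.56%, while 82.9% of thinned pericytes (75.6 to 88.7) and 32.9% of thinned vascular SMC (25.2 to 41.3) did. In the deposited counts the shares were 8.93% of interstitial SMC (2.96 to 19.6), 87.3% of pericytes and 58.9% of vascular SMC. Among fibroblasts the level was 9.01 ± 9.52 in cluster 5 (n = 4) and 0 to 3.90 in the other clusters.

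*Gpx3* (ENSMUSG00000018339, chr11:54902453-54910377, plus strand) encodes the glutathione peroxidase of plasma, a secreted selenoprotein. It was at 942.3 and 956.3 in the pericytes of Cspg4dsRED and PdgfrbGFP, at 86.2, 15.5 and 50.7 in the vascular SMC of Acta2GFP, Cspg4dsRED and PdgfrbGFP, and at 303.5 in interstitial SMC. Both pericyte lines were above the single interstitial SMC value, which was above each vascular SMC line. Fibroblasts were higher still in 4 of 5 clusters (1330 to 2013), and only the cluster 7 cells of the mucosal base (502.5 ± 17.3, n = 3) were below the pericytes. Its thinned share was above 80% in each cluster, so the gene differed in level rather than in presence.

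*Pcp4l1* (ENSMUSG00000038370, chr1:171173262-171196268, minus strand) encodes a small intracellular protein related to the calmodulin regulator PCP4. Its level in vascular SMC was 654.9 in Cspg4dsRED, 727.98 in Acta2GFP and 754.3 in PdgfrbGFP (712.4 ± 51.5). Pericytes had 204.2 and 180.7, and interstitial SMC 194.3, which fell between them. Every vascular SMC line was above every other line. Pericytes and interstitial SMC were alike in mean but not in spread over cells, since the medians were 17.5 and 27.4 in the pericyte lines and 198.5 in interstitial SMC, and 38.7% of pericytes (30.7 to 47.3) but 69.6% of interstitial SMC (55.9 to 81.2) reached a level of 100. All fibroblast clusters were between 1.38 and 2.74.

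*Plac8* (ENSMUSG00000029322, chr5:100553725-100572245, minus strand) encodes a small cysteine-rich protein. It was at 255.01 in Cspg4dsRED pericytes, 533.2 in PdgfrbGFP pericytes and 260.9 in interstitial SMC. The 3 vascular SMC lines had 12.6, 5.80 and 27.8 (Acta2GFP, Cspg4dsRED, PdgfrbGFP), the lowest cluster of all 8, and fibroblasts had 72.5 to 329.8. Interstitial SMC lay within the range of the pericyte lines, and 98.1% of them (90.1 to 100) held a count after thinning.

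*Higd1b* (ENSMUSG00000020928, chr11:102835849-102838040, plus strand) encodes a small protein of the hypoxia-inducible gene domain family. Not scaled to length, it was the lowest of the pericyte-high genes, with 45.8 and 64.1 in the pericytes of Cspg4dsRED and PdgfrbGFP and 12.5, 2.96 and 12.4 in the vascular SMC of Acta2GFP, Cspg4dsRED and PdgfrbGFP. No count was found in 56 interstitial SMC, which allows a share of up to 5.36%, and fibroblast means were at most 0.228. Of the pericytes 40.1% (32 to 48.7) held a count in the deposited data and 32.9% (25.2 to 41.3) after thinning, so most pericytes were without a detected *Higd1b* read at this depth.

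**Figure D2:**
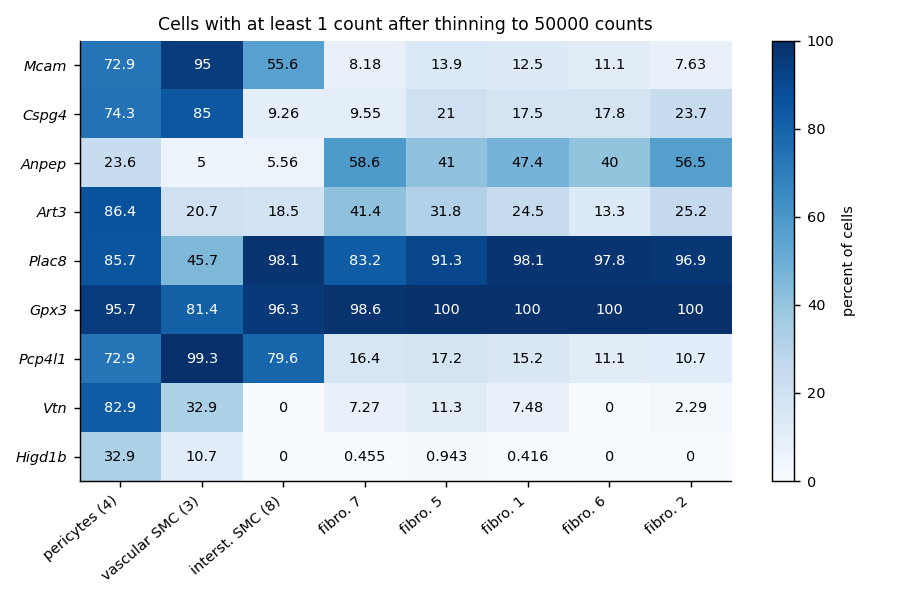
Percent of cells with at least 1 count of each gene after thinning to 50000 counts per cell, by cluster, from white (0) to dark blue (100). *Plac8* and *Gpx3* are detected in most cells of nearly every cluster, whereas *Vtn* and *Higd1b* are at 0 in interstitial SMC and *Cspg4* is at 9.26% there.

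The start regions of 8 of the 9 genes were found in the RefSeq promoter table (GRCm38.p6), and the 250 bases before each start were searched on both strands. The stretches upstream of the annotated genes are shown for *Cspg4* (chr9:56864854-56865032, plus strand), *Art3* (chr5:92331577-92331826, plus), *Vtn* (chr11:78498870-78499090, plus) and *Pcp4l1* (chr1:171196269-171196518, minus), as the 4 genes stand for 4 patterns over the mural clusters. Capitals mark the motifs found, on either strand, of GGGCGG for the GC box, TATAAA for the TATA motif, TGGGAA for the RBPJ motif and AGATAA for the GATA motif.
Cspg4: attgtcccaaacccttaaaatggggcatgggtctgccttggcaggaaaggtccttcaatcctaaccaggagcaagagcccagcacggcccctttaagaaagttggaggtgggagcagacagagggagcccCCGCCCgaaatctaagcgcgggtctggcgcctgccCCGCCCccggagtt
Art3: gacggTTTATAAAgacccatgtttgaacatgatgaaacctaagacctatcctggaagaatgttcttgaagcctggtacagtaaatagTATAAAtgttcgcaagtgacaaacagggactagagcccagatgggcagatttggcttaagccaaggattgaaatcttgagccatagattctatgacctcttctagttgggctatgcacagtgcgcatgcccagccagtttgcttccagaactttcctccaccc
Vtn: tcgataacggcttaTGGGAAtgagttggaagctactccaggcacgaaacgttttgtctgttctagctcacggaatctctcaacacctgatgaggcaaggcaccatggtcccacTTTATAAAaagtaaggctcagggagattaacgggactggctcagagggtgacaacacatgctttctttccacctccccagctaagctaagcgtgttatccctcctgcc
Pcp4l1: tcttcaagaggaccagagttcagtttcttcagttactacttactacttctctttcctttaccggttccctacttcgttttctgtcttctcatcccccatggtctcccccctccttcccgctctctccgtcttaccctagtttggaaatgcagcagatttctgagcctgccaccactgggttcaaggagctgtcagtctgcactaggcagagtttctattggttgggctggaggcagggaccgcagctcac

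*Cspg4* held 2 GC boxes, *Vtn* an RBPJ motif and a TATA stretch read on both strands, *Art3* a like stretch and a further TATA motif, and *Pcp4l1* none of the 4 motifs. *Art3* has 2 further starts in the table, of which the first held an RBPJ motif and 2 TATA motifs and the other none. *Mcam* held 5 GC boxes, *Anpep* 3, and *Gpx3* a GC box and an RBPJ motif, and the 2 starts of *Plac8* held none of the 4. None of the promoters found held a CArG box, the site named for serum response factor, which 1.47% of the 32851 promoters in the table hold. Of all promoters 32.7% hold the GC box, 21.6% the RBPJ motif, 12.4% the TATA motif, 9.99% the GATA motif and 66.2% an E-box (CANNTG, not in capitals). These matches are a description of letters.

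Next, pericytes were compared with vascular SMC within plates, on the 3 plates with at least 10 cells of both (1 of Cspg4dsRED, 2 of PdgfrbGFP). Values are log2 ratios of mean counts per 500000 with a pseudocount of 1. In all, 6 genes were higher in pericytes on each plate: *Gpx3* (5.16 ± 0.75, SD, n = 3 plates), *Plac8* (4.61 ± 0.54), *Art3* (4.51 ± 0.93), *Anpep* (2.98 ± 1.41), *Vtn* (2.82 ± 0.45) and *Higd1b* (2.62 ± 0.85). Among the 13257 genes with a mean of at least 1, 21.1% were higher on each plate and 17.6% lower. The median ratio of all these genes was 0.06, and the quartiles were -0.63 and 0.77. *Mcam* (-0.77, from -1.44 to -0.08) and *Pcp4l1* (-2.04 ± 0.33) were lower in pericytes on each plate, and the *Mcam* levels on the Cspg4dsRED plate, 573.3 against 605.8, were nearly alike. *Cspg4* had no single direction, with 800.4 in pericytes against 398.3 in vascular SMC on the Cspg4dsRED plate, 232.8 against 168.1 on the next and 201.7 against 228.6 on the last. The summed fibroblast markers were also higher in pericytes on each of these plates, at 733.5 against 112.1, 1967 against 197.2 and 1323 against 117.4, and their part in the ratios of *Gpx3*, *Plac8* and *Anpep*, which fibroblasts also hold, was not tested. With a plate of 3 pericytes and 7 vascular SMC added, neither *Mcam* (654.8 against 475.9) nor *Pcp4l1* (777.9 against 636.3) kept its direction on each of the 4 plates.

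Vascular SMC were compared with interstitial SMC on both Acta2GFP plates. *Cspg4* was 212.4 against 10.3 on one plate and 116.01 against 0 on the other, *Mcam* 771.2 against 164.7 and 458.9 against 125.3, and *Pcp4l1* 821.02 against 194.8 and 671.1 against 192.4. These 3 genes were higher in vascular SMC on both plates, as were 26.8% of the 12789 genes tested. *Plac8* was 2.89 against 265.9 and 18.5 against 244.3, and *Gpx3* 30.8 against 303.2 and 120.1 against 304.6, which made these 2 genes lower in vascular SMC on both plates, beside 28% of all genes. The summed fibroblast markers were lower in vascular SMC on the same plates, at 88.7 against 878.5 and 1002 against 1627, and their part was not tested. The mean log2 ratios were -4.88 ± 1.73 for *Plac8* and -2.30 ± 1.36 for *Gpx3*, against a median of -0.04 for all genes. *Anpep*, *Art3*, *Vtn* and *Higd1b* had no shared direction on these 2 plates. *Vtn* was at 19 in vascular SMC on one plate and at 0.0383 on the other.

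No plate had 10 pericytes and 10 interstitial SMC, and with at least 10 cells the clusters came from different lines, so that cluster and line cannot be told apart between them. On this footing the 3 pericyte plates lay above the 2 interstitial SMC plates for *Cspg4*, *Anpep*, *Art3*, *Gpx3*, *Vtn* and *Higd1b*, beside 18.8% of the 13299 genes tested. No member lay below, beside 12.2% of all genes. Only 4 interstitial SMC were from PdgfrbGFP, the line with most pericytes. In these 4 cells *Plac8* was 317.8, 323.5, 428.1 and 452.6, *Gpx3* 168.99, 214.9, 474.4 and 949.4, and *Pcp4l1* 6.51, 216.2, 369.4 and 560.2. *Cspg4* was at most 4.34, *Vtn* at most 2.17 and *Art3* at most 17.4 in them, and *Higd1b* had no count. The low *Cspg4*, *Vtn* and *Art3* and the high *Plac8* of interstitial SMC were thus also seen in the few such cells of a second line.

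**Figure D3:**
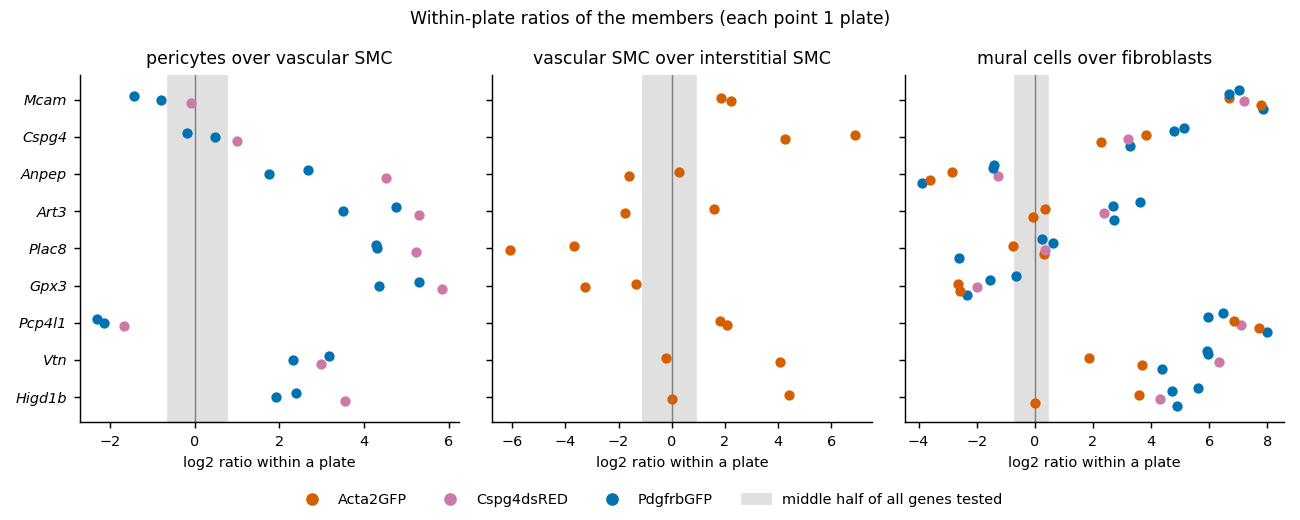
Log2 ratio within a plate for the 9 genes, with 1 point for each plate coloured by reporter line, for pericytes over vascular SMC (3 plates), vascular SMC over interstitial SMC (2 plates) and mural cells over fibroblasts (6 plates). The grey band runs from the first to the third quartile of all genes tested. *Cspg4* crosses 0 in the left panel, *Plac8* lies far left in the middle panel, and *Mcam* and *Pcp4l1* lie above 5.97 on every plate in the right panel.

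Over 6 plates with at least 10 cells of both classes, mural cells were set against fibroblasts. *Mcam* (7.20 ± 0.52, SD, n = 6 plates), *Pcp4l1* (7.01 ± 0.75), *Vtn* (4.69 ± 1.73) and *Cspg4* (3.75 ± 1.07) were higher in mural cells on each of them, as were 8.96% of the 13645 genes tested. On the Acta2GFP plate with 12 interstitial SMC, *Vtn* was at 17.4 against 4.02, with 1 pericyte at 535.5 and no other mural cell above 2.38. A *Vtn* count was held there by 9.68% of mural cells and 13.4% of fibroblasts. On the other Acta2GFP plate the mural level of 45.9 came mainly from cells at 1861, 352.6 and 209.5. *Anpep* (-2.41 ± 1.19) and *Gpx3* (-1.95 ± 0.76) were lower on each, as were 11.6% of all genes, so the classical marker CD13 and *Gpx3* ran against the mural class. *Art3* and *Higd1b* were higher on 5 of 6 plates and *Plac8* on 4 of 6. The make-up of the mural class differed between plates. The plate where neither *Art3* nor *Higd1b* was higher had 40 interstitial SMC and 11 vascular SMC. The *Plac8* exceptions had 7 vascular SMC beside 3 pericytes, and 18 vascular SMC beside 12 interstitial SMC. The plates with most pericytes had 49 and 47. The part of this mix in the ratios was not tested. The median over all genes was -0.09. Under scaling to the ERCC spike-in counts the medians of all genes were -0.54 here, -0.54 for pericytes over vascular SMC and 0.21 for vascular over interstitial SMC, and the genes with 1 direction that were higher made up 16.8%, 20.6% and 58.6% in place of 43.6%, 54.6% and 48.9%. No gene of the 9 with 1 direction changed its direction with this scaling.

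How far single cells could be told apart was described by the share of cell pairs, 1 cell from each cluster, in which the first had the higher level, with ties as 0.5. Between pericytes and vascular SMC *Pcp4l1* came to 0.0837 on average (0.0157 to 0.143 over 3 plates), which ranked 10 among the 13257 genes by distance from 0.5. *Gpx3* followed with 0.908 (rank 14), *Plac8* and *Art3* with 0.881 (ranks 25 and 26) and *Vtn* with 0.810 (rank 84). *Mcam* came to 0.316, *Higd1b* to 0.604 and *Anpep* to 0.590, and *Cspg4*, at 0.494, ranked 11573. For *Cspg4* the value on the Cspg4dsRED plate was 0.725 and on the PdgfrbGFP plates 0.389 and 0.367, hence on opposite sides of 0.5.

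Between vascular and interstitial SMC *Plac8* gave 0.0463 (0 and 0.0926 on the 2 plates, rank 28 of 12789), and on the first of these plates no vascular SMC had more *Plac8* than any interstitial SMC. *Pcp4l1* gave 0.945 (rank 41), *Cspg4* 0.887 (rank 98) and *Mcam* 0.878. *Gpx3* gave 0.236, and the other 4 genes were between 0.415 and 0.542. Over all cells, which adds vascular SMC of other lines, *Vtn* gave 0.760 and *Art3* 0.586, the latter on the other side of 0.5. Between pericytes and interstitial SMC, over all cells, *Vtn* gave 0.929 (rank 31 of 13299), *Art3* 0.902 (rank 49) and *Cspg4* 0.894 (rank 59), and *Pcp4l1* gave 0.438. Of the 9 genes *Pcp4l1* and *Gpx3* were thus farthest from 0.5 in the mean over plates between pericytes and vascular SMC, where *Plac8* (0.937) was farthest on 1 plate, *Plac8* and *Pcp4l1* between the SMC types, where the plates put a different one of these first, and *Vtn* between pericytes and interstitial SMC. Between mural cells and fibroblasts *Pcp4l1* gave 0.942 (rank 12 of 13645), *Mcam* 0.901 (rank 33) and *Gpx3* 0.163.

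**Figure D4:**
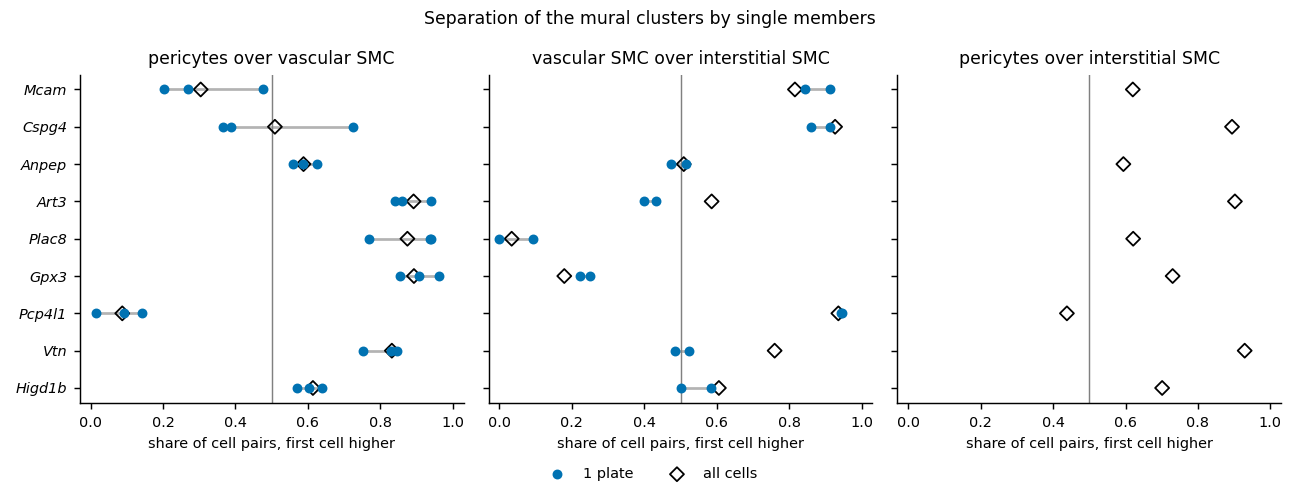
Share of cell pairs in which the cell of the first-named cluster has the higher level, for each gene and pair of mural clusters. Filled points are single plates and open diamonds all cells, and the line at 0.5 marks no separation. *Pcp4l1* and *Plac8* lie near the ends for vascular SMC, and *Cspg4* straddles 0.5 for pericytes and vascular SMC.

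Within the pericyte cluster the surface genes were uneven from cell to cell. In PdgfrbGFP pericytes *Mcam* had a mean of 221.98 but a median of 56, with 6.05 and 399.8 as quartiles, and *Cspg4* a mean of 247.04 and a median of 58.4. A level of 100 was reached by 51.4% of all pericytes (42.9 to 59.9) for *Mcam*, 56.3% (47.8 to 64.6) for *Cspg4* and 38.7% (30.7 to 47.3) for *Pcp4l1*. For *Cspg4* it was reached by all pericytes of Cspg4dsRED, the line sorted on it, and by 44.2% of those of PdgfrbGFP. For *Mcam* the shares of these lines were 72.7% and 44.2%. Few cells lay near a level of 100. For *Mcam*, 63 pericytes were below 50, 15 between 50 and 200, and 64 at 200 or more, and for *Pcp4l1* the numbers were 81, 10 and 51. In vascular SMC 97.2% of cells (92.9 to 99.2) reached 100 of *Pcp4l1*.

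Pairs of genes were then read in single cells, for pairs chosen after their values were seen. *Mcam* and *Cspg4* both reached 100 in 32.4% of pericytes (24.8 to 40.8), *Mcam* alone in 19% (12.9 to 26.4), *Cspg4* alone in 23.9% (17.2 to 31.8) and neither in 24.6% (17.8 to 32.6). These shares differed by line, since both reached 100 in 72.7% (54.5 to 86.7) of the Cspg4dsRED pericytes, the line sorted on *Cspg4*, and in 20.2% (13 to 29.2) of the PdgfrbGFP pericytes. In vascular SMC both reached it in 58.9% (50.3 to 67.1). In interstitial SMC *Mcam* alone did in 48.2% (34.7 to 62), and 0 of 56 cells had both, which allows up to 5.36%. *Art3* without *Pcp4l1* marked 40.1% of pericytes (32 to 48.7) and no vascular SMC, which allows up to 2.13%, and 8.95% of fibroblasts (7.46 to 10.6), whereas *Pcp4l1* without *Art3* marked 90.1% of vascular SMC (83.9 to 94.5), 62.5% of interstitial SMC (48.5 to 75.1) and 11.3% of pericytes (6.58 to 17.7). *Plac8* without *Mcam* marked 39.4% of pericytes (31.3 to 48), 39.3% of interstitial SMC (26.5 to 53.2) and 1.42% of vascular SMC (0.172 to 5.03), but also 65.4% of fibroblasts (62.8 to 68), more than in any mural cluster. The pericyte share differed by line, with 21.2% (8.98 to 38.9) in Cspg4dsRED and 45.2% (35.4 to 55.3) in PdgfrbGFP. Of the 9 genes, the median thinned pericyte held counts of 7, the median vascular SMC of 5, the median interstitial SMC of 4 and the median fibroblast of 3.

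**Figure D5:**
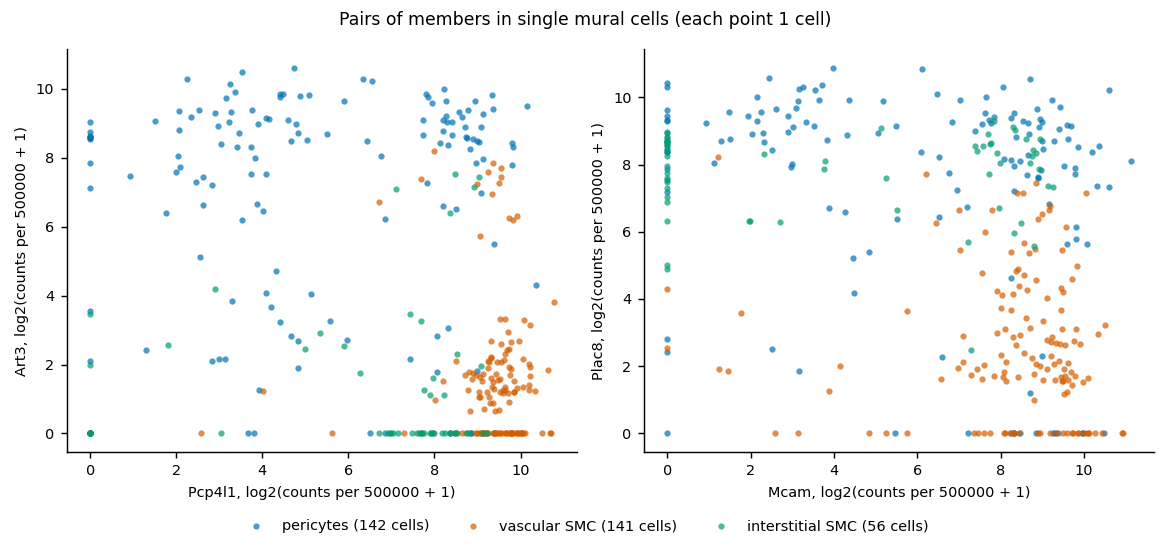
Levels of pairs of genes in the mural cells, as log2(counts per 500000 + 1), with 1 point per cell coloured by cluster. On the left, pericytes lie high on *Art3* and spread over the whole range of *Pcp4l1*, with few cells between the low and the high part, and most vascular SMC lie at high *Pcp4l1* and low *Art3*. On the right, most pericytes and interstitial SMC have high *Plac8* over all levels of *Mcam*, and most vascular SMC lie at high *Mcam* and low *Plac8*.

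Inside clusters the levels of the 9 genes were set against summed marker levels of the same cell. Over the PdgfrbGFP pericytes, Spearman's rho with the pericyte markers was 0.46 for *Cspg4*, 0.30 for *Vtn*, 0.28 for *Art3* and 0.22 for *Mcam*. In the 33 Cspg4dsRED pericytes these were -0.09, 0.26, 0.15 and -0.26, so the *Cspg4* and *Mcam* values were not repeated in the second line. In vascular SMC *Pcp4l1* had a positive rho with the summed contractile genes in each line, of 0.71 in Acta2GFP (29 cells), 0.58 in Cspg4dsRED (30 cells) and 0.42 in PdgfrbGFP (82 cells). Its rho with depth was -0.49, -0.22 and -0.26 in the same cells. These are descriptions over cells that share a plate and a depth, and their cause was not tested.

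Across the 21 means of a line and cluster, the 9 genes fell into different patterns. *Mcam* and *Pcp4l1* were most alike (Pearson's r 0.97 of log2 levels), *Anpep* was like *Gpx3* (0.86), *Vtn* like *Higd1b* (0.86), *Cspg4* like *Higd1b* (0.85) and *Plac8* like *Gpx3* (0.81). *Mcam* ran against *Anpep* (-0.77). Among 13712 genes the 3 most like *Mcam* were *Pcp4l1*, *Trarg1* and *Angpt2* (each 0.97), and the 3 most like *Pcp4l1* were *Lmod1* (0.99), *Tinagl1* (0.98) and *Mcam*. *Cspg4* was followed by *Slc7a2*, *Fhl5* and *Gm17276* (each 0.91), *Higd1b* by *Arhgef16* and *Ephx3* (both 0.96), and *Vtn* by *Adra2a*, *Gimap6* and *Cyp4b1* (each 0.90). *Art3* had the weakest neighbours, *Alad* (0.84), *Tmem273* (0.82) and *Ankrd29* (0.81). *Plac8* was nearest to *Dkk3*, *H2-T23* (both 0.87) and *Col4a1* (0.86), *Anpep* to *Pltp* (0.93), *Anxa5* (0.92) and *Sars* (0.91), and *Gpx3* to *Lgals3bp* (0.93), *Pltp* (0.92) and *Cd63* (0.91). The points share lines, plates and depth, and these r values carry no p.

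Among 20 other genes known from pericytes and mural cells, 13 were higher in pericytes than in vascular SMC on each of 3 plates and 3 lower, with a median log2 ratio of 0.69 beside 0.06 for all genes, of which 21.1% and 17.6% had these directions. The highest were *Steap4*, a metalloreductase (6.42), and *Nrp1*, a co-receptor of VEGF and semaphorins (3.23). The 3 lower ones were the sphingosine-1-phosphate receptor *S1pr3* (-2.97), *Rgs4*, a regulator of G-protein signalling (-1.20), and the integrin *Itga7* (-0.44). Between vascular and interstitial SMC 16 were higher and 4 lower on both plates (median 2.78), beside 26.8% and 28% of all genes (median -0.04). Between mural cells and fibroblasts 13 were higher and 1, *Cd248*, was lower on each of 6 plates (median 3.16), beside 8.96% and 11.6% of all genes (median -0.09). *Art3*, *Plac8* and *Gpx3* had larger ratios between pericytes and vascular SMC than each of these 20 genes except *Steap4*.

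The low counts of these genes in fibroblasts were set against the neighbouring wells of the sorting plate. For each of 6 plates with mural cells, the count of a gene in a fibroblast (832 cells in all) was correlated with its summed counts in the other wells of the same row or column. The mean rho was 0.56 for *Pcp4l1*, 0.47 for *Mcam*, 0.37 for *Vtn* and 0.34 for *Cspg4*, and it was 0.23 for *Higd1b*, 0.15 for *Plac8*, 0.13 for *Art3*, -0.02 for *Gpx3* and -0.05 for *Anpep*. *Higd1b* had a value on 5 of the plates. The plates differed in sign for *Gpx3* (-0.67 to 0.25), *Anpep* (-0.47 to 0.19) and *Plac8* (-0.04 to 0.26), whereas *Pcp4l1* (0.30 to 0.68) and *Mcam* (0.28 to 0.61) were positive on each. On the 2 PdgfraGFP plates, which held 2 pericytes and no SMC, fibroblast *Pcp4l1* was at 0.330 and 0.627, beside 0.531 to 6.08 on the other plates, and *Mcam* at 0.104 and 2.68, beside 0.357 to 3.14. Most of the 2.68 came from 1 fibroblast at 301.7. *Cspg4* was at 24.4 and 31.1, above the 4.00 to 21.1 of the plates with mural cells outside Cspg4dsRED. A part of well-to-well carry-over in the fibroblast counts was not tested.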

How the data were processed

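Single cells of the colon were sorted into plates and sequenced by the authors with the SmartSeq2 protocol, which has no molecular identifiers. The authors trimmed the reads, mapped them to GRCm38 (mm10) with TopHat2 and Bowtie, removed what they call doublets with samtools and used featureCounts for the count of reads on each gene. These whole-number counts are the values deposited. Their filters included library size, a cap on genes per cell against doublets and removal of contaminated cells. Rows of ERCC spike-ins (1.36% of counts) did not enter library sizes here. No doublet caller was run. Of 46517 gene rows 46005 had a symbol in GENCODE vM21.

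Counts were scaled to 500000 per cell and averaged over the cells of a cluster within a line or plate of at least 10 such cells. Log2 ratios used a pseudocount of 1, and genes with a mean level of at least 1 formed the background. Shares of cells used cells thinned to 50000 counts, which left out 11 shallower cells. Clusters, lines and plates were taken from the labels. The members and lists were chosen with earlier results of these data known. Named genes were the 9 members, marker genes, the 3 genes most like each member and the 3 highest and lowest of 20 other mural genes. One gene that this rule names is not reported here. No p-value was computed, as clusters were drawn from the same counts and no mouse is named. The calculation was tested on simulated data. Alternatives changed the pseudocount, scaling (ERCC, TMM of edgeR 4.0.16, median of ratios), thinning, minimum number of cells, grouping by line, and cells or plates included. Python 3.11.15, numpy 2.4.6, pandas 2.3.3, scipy 1.17.1, matplotlib 3.10.9 and R 4.3.3 were used.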

Additional observations from a re-analysis of the deposited data

Results flagged for a closer look

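In groups of 4 to 10 lines or plates, the highest and the lowest value of a member were compared with the rest by Dixon's ratio. Of 36 groups examined, 7 held a value that stood apart. The rule flags about 1 in 20 by chance for independent values with a normal spread. These groups share cells and hold skewed levels, so the 7 cannot be set against that rate. The causes were not tested.

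*Cspg4* in fibroblasts was at 65.6 counts per 500000 on the plate of Cspg4dsRED, the line sorted on *Cspg4* sequences, against 4.00 to 31.1 on the other plates. *Anpep* in cluster 5 fibroblasts was at 52.9 in Cspg4dsRED, against 20.4 to 25.4 in the other lines. On the PdgfrbGFP plate with 47 pericytes *Anpep* was at 4.56 in vascular SMC, against 0 to 1.24 elsewhere, with 1 of its 42 cells at 147.1 and the next at 38.1, and at 55.1 in fibroblasts, against 13.7 to 33. *Higd1b* was at 0.762 in the cluster 5 cells of Cspg4dsRED, against 0 to 0.0763 in other lines, and at 0.354 in all fibroblasts of the Cspg4dsRED plate, against 0 to 0.152, and both values come from the same single cell, at 9.90. The log2 ratio of *Higd1b* between mural cells and fibroblasts was 0 on the Acta2GFP plate with 40 interstitial SMC and 3.59 to 5.61 on the other 5 plates.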

How the results depend on the processing

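Of the ratios of single members recomputed under the alternatives, 21 moved by more than 1 SD between plates, and no gene with 1 direction on every plate had its mean ratio change sign. *Cspg4*, which had no single direction, went from 0.43 to -0.50 between pericytes and vascular SMC with ERCC scaling. The counts of genes stayed within 1.5 times of the values above in 110 alternatives and left it in 8. With at least 3 cells, 0 members were higher in vascular SMC than in pericytes on each of 4 plates. With lines in place of plates, where 1 line holds both SMC types, 5 members were higher in vascular and 4 in interstitial SMC. Leaving out a plate gave 4 to 6 members higher in vascular SMC (6 without the plate of 40 interstitial SMC, 4 without that of 12) and 3 to 4 higher in interstitial SMC (3 and 4 likewise), since 1 plate then sets the direction. For members higher in interstitial SMC than in pericytes the count became 1, *Pcp4l1*, with ERCC scaling, 1 without cells holding *Ptprc* or *Cd68* and 0 to 1 with a plate left out (1 without the Cspg4dsRED plate). The causes of the last changes were not tested. Without cells holding a count of *Pecam1* or *Cdh5* only 19 pericytes, 27 vascular SMC and 8 interstitial SMC remained, so the mural clusters could not be compared, and mural cells against fibroblasts rested on 2 plates, where *Art3* came to -0.42 in place of 1.94 and *Vtn* to 1.02. Of 54 separations of single cells between mural clusters, 49 moved by at most 0.05, with those of pericytes and interstitial SMC counted although they were already over all cells, and the others were between the SMC types over all cells, *Vtn* most (0.760 in place of 0.503). Between mural cells and fibroblasts *Vtn* went from 0.689 to 0.744 over all cells. With no filter on low values, the shares of all genes with 1 direction were 14.7% and 11% (pericytes over and under vascular SMC), 19.1% and 22.7% (vascular over and under interstitial SMC) and 4.31% and 5.88% (mural cells over and under fibroblasts). Of the 27 genes most like a member, 19 were kept when a mean level of 10 was required. No test between groups was run, so no replicate numbers were paired. Depth limits the shares of *Anpep*, *Higd1b* and other low genes, since reads of low genes are missed in shallow cells.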
